A study of Mus musculus with 2 samples.

Results

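miR-103 and miR-107 are sister miRNAs of 23 bases that differ at a single base and are made from introns of pantothenate kinase genes. They were chosen by their exact names on the array, mmu-miR-103 and mmu-miR-107, and are 2 of the 1023 mouse miRNAs measured. Each has a pair of probes, and the 4 probes were printed as 80 spots on each array. RNA was taken from quadriceps muscle of the thigh, in female mice 15 to 16 weeks old. One sample was wild type (WT), and the other came from NF90-NF45 dbTg mice, which carry transgenes for NF90 and its partner NF45. The labels give neither the promoter of the transgenes nor whether a sample was 1 animal or a pool. There was 1 single-colour array for each genotype, so no value has a replicate and no test between genotypes was possible.

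A miRNA guides the Argonaute complex to messenger RNAs that pair with its seed, bases 2 to 8, and lowers their output. The host genes encode pantothenate kinases, which carry out the first step of coenzyme A synthesis, so the miRNAs are transcribed along with enzymes of acyl metabolism. In mice, miR-103 and miR-107 are known to lower insulin sensitivity in liver and fat, with caveolin-1 as a target, and both also act on Dicer in other settings. The complex of NF90 and NF45 binds double-stranded RNA and is known to hinder the release of some miRNA precursors from their primary transcripts. The comparison asks what excess of both proteins does to the miRNA profile of muscle.

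The mature sequences, from RefSeq on GRCm38.p6, are shown with the seed in capitals because the pair shares it in full.
miR-103-3p: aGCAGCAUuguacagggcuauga
miR-107-3p: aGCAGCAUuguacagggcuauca
Counted from the 5′ end of miR-103-3p, the difference is G22C, outside the seed. Of 1679 mature miRNA names in the RefSeq table, these 2 alone had this seed.

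The hairpins are shown because 3 genes give rise to the 2 miRNAs, with capitals marking the mature arms.
Mir103-1: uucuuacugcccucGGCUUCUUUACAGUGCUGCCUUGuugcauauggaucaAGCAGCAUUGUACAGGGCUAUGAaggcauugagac
Mir103-2: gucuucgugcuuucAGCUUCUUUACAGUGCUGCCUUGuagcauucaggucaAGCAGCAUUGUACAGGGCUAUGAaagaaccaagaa
Mir107: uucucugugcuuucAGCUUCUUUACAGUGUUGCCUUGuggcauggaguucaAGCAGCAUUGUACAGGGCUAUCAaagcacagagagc
On GRCm38.p6, Mir103-1 lies at chr11:35782396-35782481 on the plus strand, within the bounds of Pank3. Mir103-2 lies at chr2:131288052-131288137 on the plus strand, within those of Pank2. Mir107 lies at chr19:34820687-34820773 on the minus strand, within those of Pank1. Each hairpin has the same strand as its host gene. The hairpins of Mir103-1 and Mir103-2 were 80.2% identical, and that of Mir107 was 80.5% and 83.9% identical to them. Both Mir103 genes yield the same mature miR-103, so the array reads their sum.

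The probes are shown because they decide how far the array can tell the sisters apart. Capitals mark the base that faces mature base 22.
miR-103, 18 bases: tCatagccctgtacaatg
miR-103, 17 bases: tCatagccctgtacaat
miR-107, 20 bases: tGatagccctgtacaatgct
miR-107, 19 bases: tGatagccctgtacaatgc
The capital is the base next to the probe's 5′ end, and it is the only mismatch each probe has with the other sister. No other mouse miRNA in the RefSeq table matched any of these probes with at most 1 mismatch. In the positions the files give on mm9, the longer miR-103 probe covers chr2:131113844-131113861 and chr11:35595954-35595971. The longer miR-107 probe covers chr19:34895232-34895250 there, a span of 19 bases for 20 probe bases. How much of each probe's signal came from the other sister was not tested.

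Both miRNAs were clearly detected in muscle of both genotypes, with every spot used well above background. Signals here are background-subtracted spot means in arbitrary units, before scaling between arrays, with the SD over spots. The 18-base probe of miR-103 read 559 ± 32.3 (SD, 20 spots) in WT and 755 ± 31.9 (SD, 18 spots) in dbTg. The 17-base probe of miR-103 read 301 ± 21.7 (SD, 20 spots) in WT and 372 ± 22.4 (SD, 19 spots) in dbTg. Both probes of miR-103 were therefore brighter on the dbTg array before scaling, by 1.35-fold and 1.24-fold. In the 18-base probe the spots did not overlap, the brightest WT spot being 618 and the dimmest dbTg spot 687. In the 17-base probe they did, with the brightest WT spot at 342 and the dimmest dbTg spot at 330.

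For miR-107 the gap between the arrays was wider. Its 20-base probe read 726 ± 41.2 (SD, 20 spots) in WT and 1116 ± 38.8 (SD, 20 spots) in dbTg, a difference of 1.54-fold before scaling. Its 19-base probe read 239 ± 9.59 (SD, 18 spots) in WT and 403 ± 11.7 (SD, 18 spots) in dbTg, a difference of 1.68-fold. The WT and dbTg spots overlapped in neither probe of miR-107. In the plot of spots by probe the same pattern is seen spot by spot. Before scaling the dbTg array was brighter as a whole, by 0.47 on the log2 scale at the median miRNA. The share of all detected probes whose WT and dbTg spots do not overlap was not counted for comparison with these 4 probes.

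**Figure D1:**
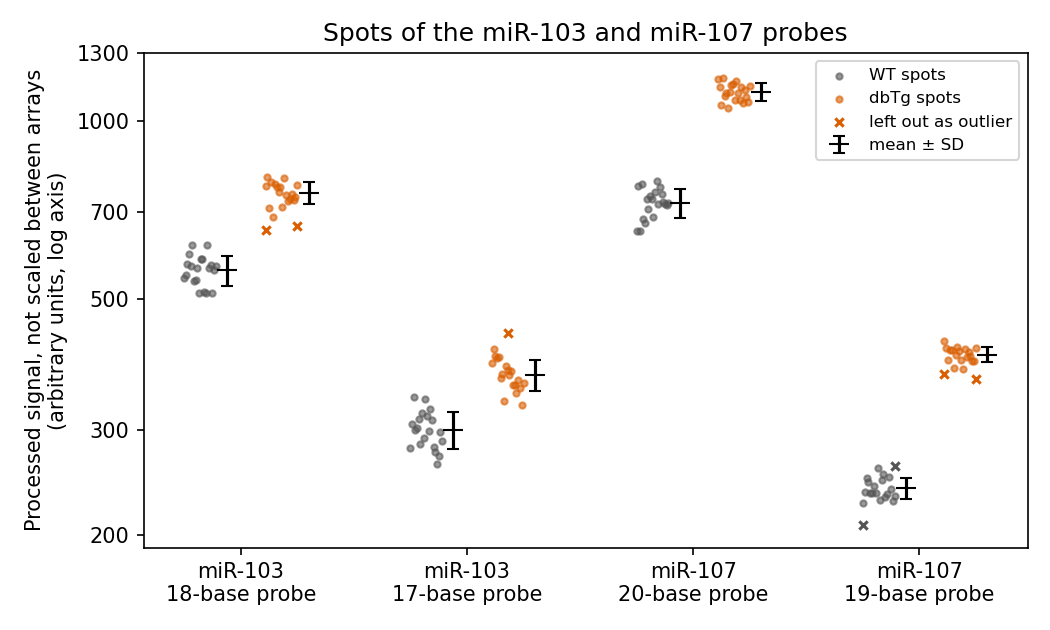
Processed signal of every spot (y axis, arbitrary units, log axis, not scaled between arrays) for the 4 probes on the WT (grey) and dbTg (orange) arrays; crosses are spots left out as outliers, and black bars are the mean ± SD over the spots used. Of these 4 probes, the WT and dbTg spots used overlap in the 17-base miR-103 probe only, with the dbTg array brighter as a whole. The widest step is that of the 19-base miR-107 probe, from 239 to 403.

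The median miRNA was brighter on the dbTg array by 0.47 on the log2 scale, so the arrays were put on a common scale. The divisor was the 75th percentile of the signals of probes that both arrays detected, 882 for WT and 1220 for dbTg. A probe counts as detected when at least 0.5 of its spots are well above background. The log2 ratio is dbTg minus WT on this scale, averaged over a miRNA's probes, and its spot standard error (spot SE) covers only the spread between spots of a probe. On this scale miR-103 and miR-107 differed little between the genotypes. miR-103 had a log2 ratio of -0.098 (spot SE 0.019), or 1.07-fold lower in dbTg. miR-107 had a log2 ratio of 0.22 (spot SE 0.014), or 1.16-fold higher. Both directions depend on the scaling: each turned to the other side of 0 in 2 of 14 other settings. In RNA of a whole muscle, fewer cells of a type and less RNA per cell cannot be told apart.

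Neither sister came near the size of 2-fold used for counting. Of the 175 mouse miRNAs detected on both arrays, 20 were at least 2-fold higher in dbTg (11.4%) and 18 were at least 2-fold lower (10.3%), together 21.7%. None of the 2 sisters was among them. Counted from the highest log2 ratio, miR-107 was at place 71 and miR-103 at place 98. Both lay between the quartiles of all 175 ratios, which were -0.59 and 0.58 around a median of 0.0031. With the miRNAs put in 5 bins by mean signal, both sisters fell among the same 35, whose median log2 ratio was 0.097, and they lay on either side of it.

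**Figure D2:**
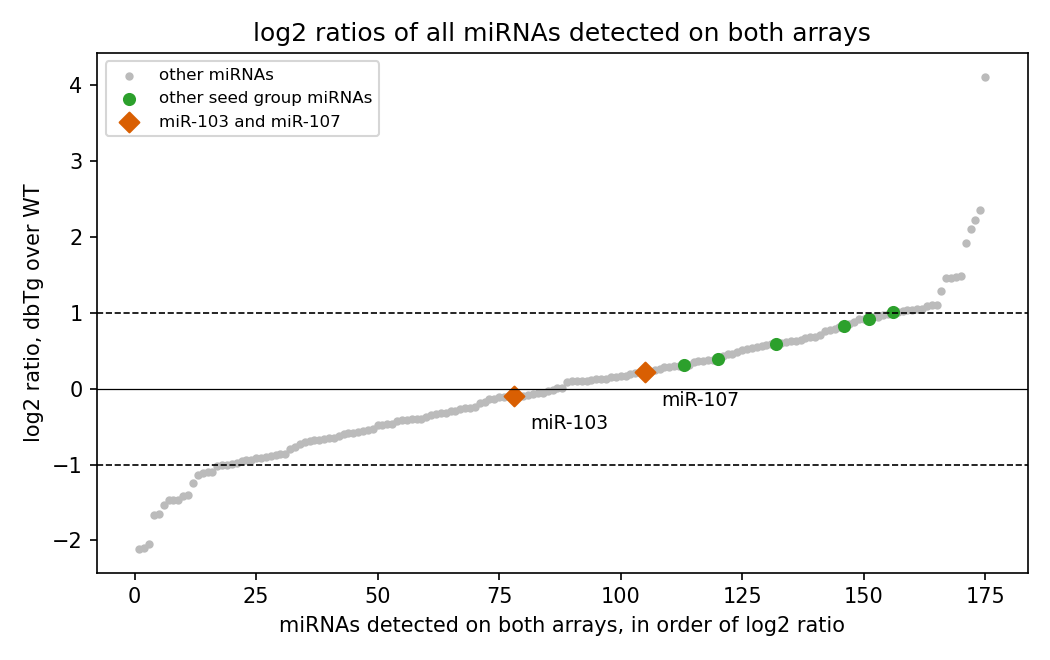
log2 ratio of dbTg over WT (y axis) for the 175 miRNAs detected on both arrays, in order of their ratio (x axis); diamonds are miR-103 at -0.098 and miR-107 at 0.22, green points are the other miRNAs of their seed group, and dashed lines mark 2-fold. Both sisters lie in the middle of the distribution, and the green points all lie above them.

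The ratios of the sisters differed from each other by more than the spot error. The log2 ratio of miR-107 exceeded that of miR-103 by 0.32 (spot SE 0.024, 95% interval from the spots 0.27 to 0.36), a factor of 1.24. A single scaling factor per array cannot change this difference, since it moves both alike. The 18-base and 17-base probes of miR-103 gave log2 ratios of -0.034 and -0.16, and the 20-base and 19-base probes of miR-107 gave 0.15 and 0.28. In all 4 pairings of a miR-107 probe with a miR-103 probe the miR-107 probe was higher, by 0.19 to 0.44.

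The spread between probes of the same miRNA is a second error that the spot SE leaves out. It was 0.13 for miR-103 and 0.13 for miR-107, larger than in 72.6% and 74.1% of the 135 miRNAs for which both arrays detected 2 or more probes. The median of this spread was 0.054 and its 95th percentile 0.26. The difference of 0.32 between the sisters was larger than the spread within 130 of the 135 miRNAs and smaller than that within 5. Over spots at the same place on both arrays, miR-107 was above the scaled level of no change at 37 of 37 places. miR-103 was above it at 8 of 37 and below it at 29. Before scaling both sisters were brighter on the dbTg array at 37 of 37 places, so these counts depend on the scaling. The share of such places over all detected probes was not counted. These places share a labelling and a hybridisation and are not replicates of the genotype.

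Many other miRNA pairs with probes within 1 mismatch differed by more. Among the 175 miRNAs, 26 pairs had probes within 1 mismatch of each other, counted over the stretch in which they overlap at any offset. Such pairs need not differ at a single base of the mature miRNA, as with miR-151-5p and miR-28. Some miRNAs, such as let-7a, stand in several pairs. The log2 ratios within the 26 pairs differed by 0.41 at the median, from 0.044 to 1.14. The pair of miR-103 and miR-107 was closer together than 17 of these pairs and farther apart than 8, so a difference of this size was not unusual among them.

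The second arms were not detected. miR-103-1* and miR-107* come from the other arm of the hairpin, and these strands are mostly discarded when Argonaute is loaded. Their mature sequences from RefSeq, with bases 2 to 8 in capitals, are shown because their probes also tell the 3 genes apart only in part.
miR-103-1-5p: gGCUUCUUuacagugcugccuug
miR-103-2-5p: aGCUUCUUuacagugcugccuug
miR-107-5p: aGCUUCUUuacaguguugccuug
The first differs from the second by G1A, and the second from the third by C16U. The 3 probes named for miR-103-1* cover no base before base 8 and match both miR-103 arms, while miR-103-2* matched no name on the array. No spot of miR-103-1* was well above background on either array, with mean signals over its probes of -3.83 in WT and -1.86 in dbTg. The same held for miR-107*, at -1.88 and -3.39. The dimmest probe called detected read 34.5 in WT and 32.3 in dbTg, so the arms have only an upper bound and no fold.

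miR-103 and miR-107 belong to a wider group of miRNAs that carry the letters AGCAGC near their 5′ end, the group of miR-15, miR-16 and the sisters, whose other members are known to restrain cyclins and BCL2. The list used here does not hold every bearer, as 13 of the 1679 mature names have these letters within bases 1 to 8. Those on the list and the array are shown with bases 2 to 8 in capitals. In them the letters sit 1 base further from the 5′ end than in the sisters and so give a different seed.
miR-15a-5p: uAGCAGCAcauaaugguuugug
miR-15b-5p: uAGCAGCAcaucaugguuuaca
miR-16-5p: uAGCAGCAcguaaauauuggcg
miR-195a-5p: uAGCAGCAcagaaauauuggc
miR-322-5p: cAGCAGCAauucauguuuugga
miR-497a-5p: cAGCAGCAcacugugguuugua
miR-503-5p: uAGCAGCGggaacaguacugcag
Besides the sisters, 6 of these 7 were detected on both arrays, and all 6 had higher log2 ratios than either sister. The 6 gave a median log2 ratio of 0.71, against 0.0031 over all 175, and 1 of the 6 was at least 2-fold higher, against 11.4% of all. Across the scalings tried, the median of the 6 ran from 0.18 to 1.18. The lowest came with scaling on positive control probes, where miR-15a and miR-16 came to -0.22 and -0.14. The median of all 175 was -0.52 there. The highest came without scaling, where 4 of the 6 were at least 2-fold higher. Of all 175, 49 were at least 2-fold higher there, and the median was 0.47.

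The values of the group follow the order of the ratios, with signals as means over a miRNA's probes before scaling. miR-15a, from a hairpin cluster with miR-16, read 1021 in WT and 1749 in dbTg, a log2 ratio of 0.31 after scaling. miR-16, which a second cluster also encodes, read 1197 and 2155, with a log2 ratio of 0.39. miR-322, the mouse form of human miR-424, read 366 and 757, with a log2 ratio of 0.59. All 3 were brighter on the dbTg array and short of 2-fold after scaling.

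miR-195 and miR-497 are made from neighbouring hairpins and gave log2 ratios close to each other. miR-195 read 686 in WT and 1690 in dbTg, with a log2 ratio of 0.83. miR-497 read 507 and 1330, with a log2 ratio of 0.92. miR-15b was the highest of the group, at 205 and 567 with a log2 ratio of 1.02, and it fell short of 2-fold in 8 of the 14 other settings tried. It lies on chromosome 3, as does 1 of the 2 loci of miR-16, whose log2 ratio was lower at 0.39. miR-503, from the cluster of miR-322, was well above background on neither array. The list also held miR-424 and miR-646, which matched no name on the array.

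In the order of these 8 ratios no neighbours overlapped in their probes. The step from miR-107 to miR-15a was the smallest that involved a sister, at 0.092 (spot SE 0.018), which is less than the 0.13 between the probes of miR-107 itself. The 6 ratios stayed above that of miR-107 in all 14 other settings. A scaling factor per array cannot change this order, so only settings that change more than the factor could have. Several of the 6 share a hairpin cluster, so their ratios are not independent of each other.

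**Figure D3:**
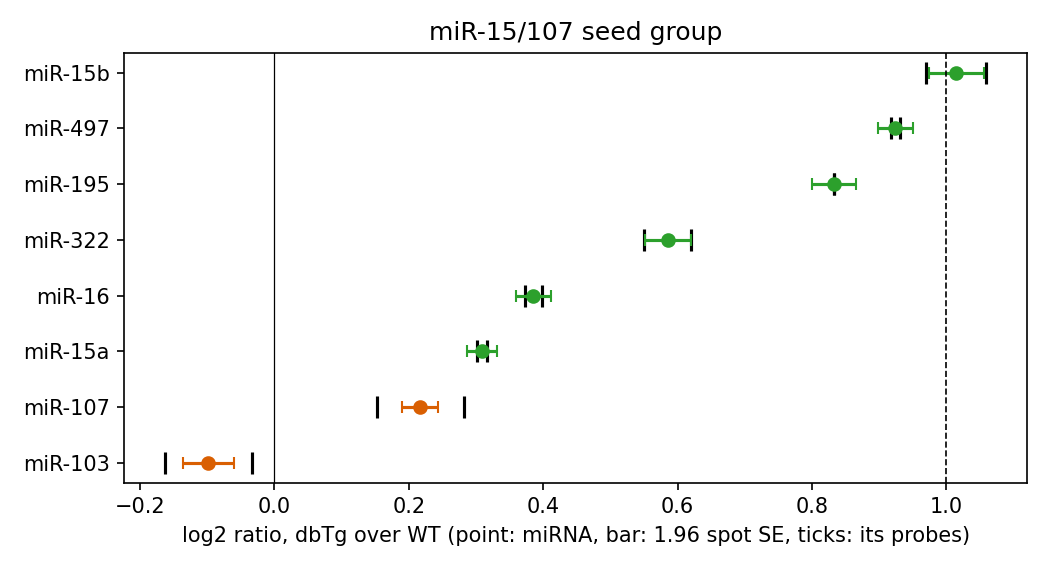
log2 ratio of dbTg over WT (x axis) for the 8 miRNAs of the seed group detected on both arrays; points are miRNAs, bars are 95% intervals from the spots, black ticks are the lowest and highest probe of each, and the dashed line marks 2-fold. miR-103 and miR-107 (orange) are the lowest pair, and miR-15b is the highest at 1.02.

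Other miRNAs linked to insulin action and glucose use gave no common direction. Of a list of 50 such miRNAs, the sisters included, both arrays detected 36, the dbTg array alone 2, and 12 were seen on neither array. At least 2-fold higher were 7 of the 36 (19.4%) and at least 2-fold lower 3 (8.33%), against 11.4% and 10.3% of all miRNAs. Their median log2 ratio was 0.12, against 0.0031 over all. With scaling on all miRNA probes the counts became 2 higher and 6 lower of the 36, against 10 and 31 of all 175. Without scaling they were 10 and 1 of the 36, against 49 and 8 of all 175. The balance thus follows the scaling, in the list as among all miRNAs. The sisters stood among the 26 of the 36 within 2-fold.

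The ends of the list show how wide its range was. The highest was miR-146a, a brake on Toll-like receptor signalling, whose log2 ratio of 2.36 rests on the 1 of its 2 probes detected in WT. The lowest was miR-378, from an intron of the PGC-1β gene and thus, like the sisters, a miRNA inside a gene of energy metabolism, with a log2 ratio of -1.47. miR-33, from the intron of the sterol regulator Srebf2, was detected in neither sample, with mean signals of 7.94 in WT and 19.3 in dbTg.

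With a single array for each genotype, likeness of pattern can only mean a like log2 ratio. Only miRNAs for which both arrays detected 2 or more probes were compared, 133 besides the sisters. Those with 1 such probe, some of them nearer, were left out. Of the 133, those nearest to miR-103 were miR-126-5p at -0.095, miR-1897-5p at -0.11 and miR-3099 at -0.11. Those nearest to miR-107 were miR-25 at 0.21, miR-152 at 0.23 and miR-1839-5p at 0.19. The nearest of the 133 to miR-103 and to miR-107 lay 0.0036 and 0.0028 away, less than the spot SE of either sister.

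The direction of each sister turned on how the arrays were scaled. Without scaling the log2 ratios were 0.37 for miR-103 and 0.69 for miR-107, where the median of all miRNAs was 0.47. With scaling on positive control probes both were below 0, at -0.63 and -0.31, with the median of all at -0.52. Settings that change only a scaling factor per array leave the distances from that median at -0.10 for miR-103 and 0.21 for miR-107. Only the other settings could move these distances. Relative to the median of each setting, miR-107 was above 0 in all 14 other settings, by 0.085 to 0.34. miR-103 was below it in 13 of the 14, by as much as -0.18, and 0.076 above it with normexp background correction. Neither sister reached 2-fold in any of the 14 settings.

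The authors' deposited table gave values of the same kind but another scale. In the authors' deposited table miR-103 stood at 3.27 in WT and 2.75 in dbTg, a log2 ratio of -0.25. In the authors' deposited table miR-107 stood at 3.67 and 3.70, a log2 ratio of 0.012. The median of all miRNAs above the lowest value of both columns in that table was -0.17, and the sisters differed by 0.26 there. For both sisters the deposited value is the software's total gene signal over a constant, 74.3 for WT and 154 for dbTg. That signal was 243 and 423 for miR-103 and 273 and 570 for miR-107. The file headers also give an effective spot size, a default of 0.6 on the WT array and a measured 0.796 on the dbTg array, a ratio of 1.33, whose part in that signal was not tested.

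**Figure D4:**
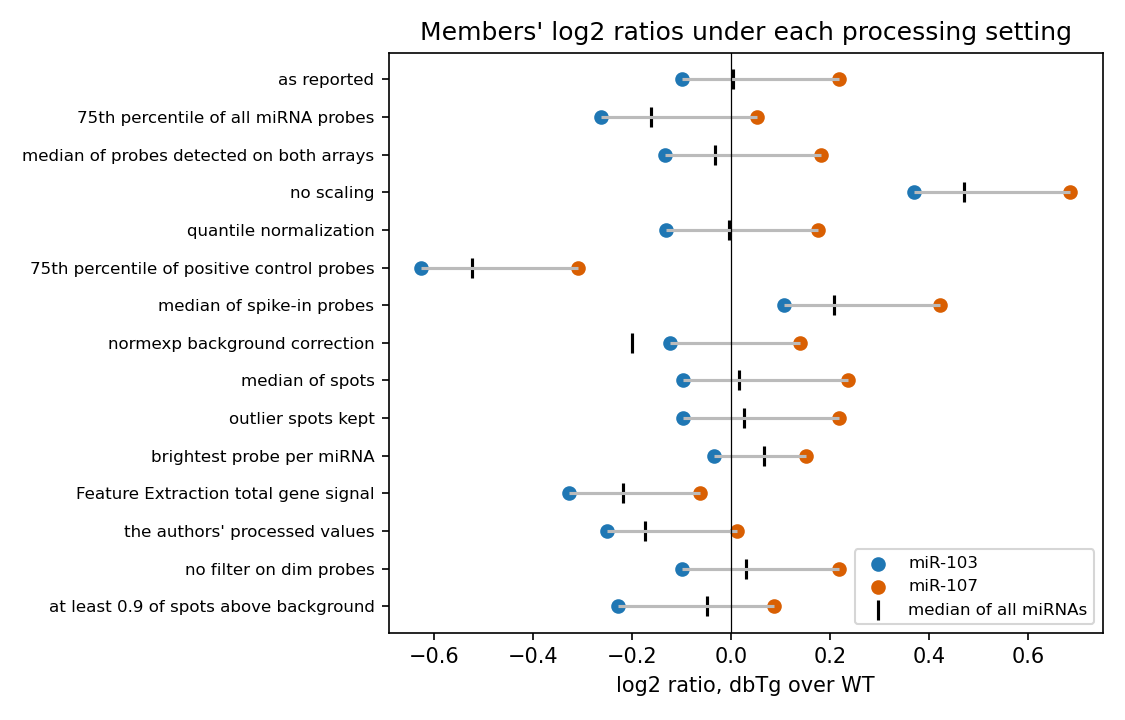
log2 ratio of dbTg over WT (x axis) of miR-103 (blue) and miR-107 (orange) as reported and under 14 other processing settings (rows), with the median of all miRNAs as a black tick. The pair moves from side to side with the scaling, from -0.63 and -0.31 to 0.37 and 0.69, while miR-107 stays to the right of miR-103 throughout. A scaling factor per array alone cannot change that order.

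The tissue and the arrays were checked as a whole. Of 43200 miRNA spots, 14.9% in WT and 17.7% in dbTg were well above background. No miRNA spot was saturated. The muscle miRNAs miR-1, miR-133a and miR-133b gave mean signals of 149070, 48683 and 79178 in WT and log2 ratios of -0.93, -1.14 and -0.94. Of the same list of 7 names, miR-206 went the other way at 4.11, the highest of the 175, miR-499 was detected on the dbTg array only, miR-208b was dim on both, and miR-486 matched no name. Of the neuronal names miR-124 and miR-9 were dim on both arrays, but miR-128 was detected on both at a log2 ratio of 1.02. Of the hepatic names miR-122 was dim on both, and miR-192 was detected at 0.92, which rests on the 1 of its 2 probes detected in WT. On the scale used here, log2 ratios of markers of other cells lay on both sides of 0. Another scaling factor per array would move them all alike. Of 6 blood cell miRNAs, 5 were detected on both arrays, with log2 ratios from -0.29 to 2.23, and miR-142-5p was detected in dbTg alone. Of 5 fibroblast names, 4 were detected, from 0.54 to 1.04, and 1 matched no name. Of 4 names linked to fat, 3 were detected on both arrays, from -1.40 to -1.01. The other, miR-455, was detected on the dbTg array only, by 1 of its 2 probes. Its mean signals over both probes were dim, 24.2 in dbTg and 5.61 in WT. The 4 vascular miRNAs ran from -0.65 to 0.13. Whether what these marker ratios reflect had a part in the ratios of miR-103 and miR-107 was not tested.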

How the data were processed

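Agilent miRNA arrays of 1 colour were hybridised with Cy3-labelled total RNA, per the labels' protocols. The authors deposited spot intensities, made with Feature Extraction 10.7.3.1 and, as the file headers state, background-subtracted and spatially detrended, with no scaling between arrays. They also deposited a table of linear intensities, whose scaling is not stated. Its column medians, 0.00135 and 0.00065, are its lowest values. Spots flagged there as outliers (4.16% of miRNA spots in WT, 3.86% in dbTg) were left out. Both arrays came from the same slide and scan.

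Spots of a probe were averaged, scaled and put on the log2 scale as the results describe, with Python 3.11.15, pandas 2.3.3 and, for normexp (offset 50), limma 3.58.1. The code was tested on simulated data. With 1 array per genotype there was no test, and the number of arrays limits the precision. Median spot variation was 6.85% in WT and 6.68% in dbTg.

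The miRNAs, lists and settings were chosen with earlier results of these data known. The naming rule takes the sisters, their second arms, the seed group, miRNAs with near-identical probes, the ends of the insulin list and the 3 nearest ratios to each. miR-33, the tissue markers named and the medians by brightness were chosen outside it. Viral probes were kept for scaling only. Hairpins, mature sequences and gene bounds are from RefSeq on GRCm38.p6; probe positions are the files' own, on mm9. The rest of the array platform's annotation was not used here.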

Additional observations from a re-analysis of the deposited data

How the results depend on the processing

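No paired analysis was possible because each genotype has 1 array, and no array could be left out. Row ranges of the array were tried for the ratios of miR-103 and miR-107 and their difference, single probes for those ratios, and other sizes for the count alone. miR-1897-5p had no ratio when 0.9 of spots had to be above background. The log2 ratios of miR-103 and miR-107 became -0.26 and 0.052 with scaling on all miRNA probes, 0.37 and 0.69 without scaling, -0.63 and -0.31 with scaling on positive control probes, and 0.11 and 0.42 with scaling on spike-in probes. They were -0.33 and -0.063 with total gene signal, -0.25 and 0.012 in the authors' values, and -0.23 and 0.088 when 0.9 of spots had to be above background. They were -0.034 and 0.15 with the brightest probe, which is the longer probe of each. The shorter probes alone gave -0.16 and 0.28. miR-107 also came to 0.18 with scaling on the median of detected probes, 0.18 with quantile normalization and 0.14 with normexp correction. The difference of miR-103 minus miR-107 was -0.26 with normexp correction, total gene signal or the authors' values and -0.19 with the brightest probe. It was -0.35 over spots in the upper rows of the array and -0.28 over those in the lower rows, and it was below 0 in every setting tried. Settings that change only the scaling factor leave it at -0.32 by construction. The count of miRNAs at least 2-fold different, 38 of 175 as reported, was 19 of 175 with normexp correction. It was 209 of 548 without the filter on dim probes. The count was 88 of 175 at a size of 1.5-fold and 10 of 175 at 3-fold. The split at 2-fold, 20 higher and 18 lower of 175 as reported, was 10 and 31 with scaling on all miRNA probes and 49 and 8 without scaling. Still of 175, it was 5 and 51 on positive controls and 31 and 12 on spike-ins. It was 10 and 32 with total gene signal and 7 and 12 with normexp correction, also of 175. In the authors' values it was 13 and 34 of 192, and with the stricter filter 8 and 27 of 157. Why the settings differ was not tested beyond their construction.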
